A study of Homo sapiens with 9 samples.

Results

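The ZNF genes are the largest group of human zinc finger genes, and those expressed in HCT116 cells were followed in cells with an inactive HUWE1. They were chosen by symbol and abundance: a row of the deposited count table was a member when its symbol was ZNF, a number and at most 1 letter, and when its mean raw count over the 9 libraries was at least 30. Among 11350 genes, 290 had such a symbol, and 131 of them reached the minimum. The 159 others had fewer counts. The mean counts of the members lay between 30.6 and 427 with a median of 58.1. These counts selected the members and are a description only.

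RNA-seq of polyadenylated RNA was made from 3 lines of HCT116, a human colorectal carcinoma cell line, with 3 libraries of each. HUWE1-P cells are the parental line. In HUWE1-WT and HUWE1-CS cells the end of the endogenous HUWE1 gene was replaced through a repair template that also adds a blasticidin resistance gene behind a P2A peptide. The template codes for the active site cysteine in HUWE1-WT cells and for serine in its place in HUWE1-CS cells. HUWE1 is a HECT ubiquitin ligase that needs this cysteine to transfer ubiquitin. No line received a further treatment. The edited lines were grown from single cells after selection with puromycin and blasticidin, so a difference between lines can also be a difference between clones. How many clones gave the 3 libraries of a line is not given in the sources used here. The test values measure the spread between these libraries.

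Most ZNF proteins carry arrays of C2H2 zinc fingers, in which a pair of cysteines and a pair of histidines hold a zinc ion and each finger reads a few bases of DNA. Many also begin with a KRAB box, which recruits the corepressor TRIM28 (KAP1) and, through it, the histone methyltransferase SETDB1, HP1 proteins and histone deacetylases. KRAB genes arose by repeated duplication, lie in clusters, mostly on chromosome 19, and are known for silencing transposable elements. Members without a KRAB box include transcription activators, proteins of the ribosome and the spindle, and a few that share only the name.

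Library totals lay between 1610984 and 2060349 counts, and the members held between 0.532% and 0.560% of the counts in each library. HUWE1 mRNA itself was lower in HUWE1-CS cells, with 336 ± 11.7 CPM (CPM, the count scaled by the library's total and its TMM factor; mean ± SD, n = 3) against 543 ± 19.8 in HUWE1-P and 469 ± 25.8 in HUWE1-WT cells. That value cannot check the exchange of a base. The epithelial markers EPCAM, CDH1, KRT8 and KRT18 were present in every library. Their levels differed in HUWE1-CS cells, with log2 fold changes against both control lines of 0.51 (CDH1), 0.26 (EPCAM), -0.35 (KRT8) and -0.28 (KRT18). In bulk RNA fewer cells that express a gene and less of its RNA per cell cannot be told apart.

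The sequences shown first belong to ZNF440 and ZNF266, the ZNF genes with the lowest values in HUWE1-CS cells. Both carry a KRAB box on chromosome 19, ZNF440 at chr19:11925088-11946031 on the plus strand and ZNF266 at chr19:9523105-9546249 on the minus strand (GRCh37). Their promoters, from 250 bases before to 50 bases after the RefSeq start (GRCh38.p14), are printed with each CG in capitals, the dinucleotide that carries DNA methylation. Each promoter held 18 CG dinucleotides, against a median of 14 over 27305 promoters of the same length and 25 over those of 108 members.
ZNF440, chr19:11814023-11814322, plus strand: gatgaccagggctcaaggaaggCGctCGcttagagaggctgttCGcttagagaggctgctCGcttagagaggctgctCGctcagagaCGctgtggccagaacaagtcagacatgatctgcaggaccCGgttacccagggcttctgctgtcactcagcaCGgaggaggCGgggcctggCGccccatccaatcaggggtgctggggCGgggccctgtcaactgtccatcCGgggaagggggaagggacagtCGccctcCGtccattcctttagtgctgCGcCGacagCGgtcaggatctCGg
ZNF266, chr19:9435524-9435823, minus strand: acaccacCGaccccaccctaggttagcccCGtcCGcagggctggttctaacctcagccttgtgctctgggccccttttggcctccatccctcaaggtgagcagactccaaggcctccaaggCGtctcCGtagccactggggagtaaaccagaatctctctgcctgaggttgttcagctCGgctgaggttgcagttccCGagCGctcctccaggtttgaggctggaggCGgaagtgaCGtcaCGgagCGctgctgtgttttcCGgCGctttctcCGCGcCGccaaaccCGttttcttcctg
Methylation was not measured in these libraries.

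Related ZNF genes can be nearly identical, so that a short read cannot always be placed. A coding stretch of ZNF440 and its counterpart in the neighbouring ZNF69 show this, with the bases that differ in capitals (GRCh37, plus strand). Over 120 bases they differed at 3 positions, 97.5% identity, and the longest run without a difference was 57 bases.
ZNF440, chr19:11942250-11942369: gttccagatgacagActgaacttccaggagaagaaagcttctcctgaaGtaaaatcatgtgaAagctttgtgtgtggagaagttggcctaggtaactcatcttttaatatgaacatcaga
ZNF69, chr19:12015531-12015650: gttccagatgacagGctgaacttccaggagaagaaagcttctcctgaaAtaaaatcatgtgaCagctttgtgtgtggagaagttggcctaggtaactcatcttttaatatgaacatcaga
Of the 50-base words of the ZNF440 transcript 13.5% occurred elsewhere in the genome, most often in ZNF69. How the counting treated reads with more than 1 place is not given in the sources used here.

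The first question was how far the ZNF genes moved when HUWE1 lost its active site. Against the mean of both control lines, HUWE1-CS cells changed 14 of the 131 members at a false discovery rate (FDR) of at most 0.01 (edgeR's quasi-likelihood test with Benjamini-Hochberg adjustment over 11350 genes), with 9 higher and 5 lower. That is 10.7% of the members. Of all genes 21.4% were called, and of the 8690 genes that reach the same mean count 24.8%, with 12.8% higher and 12% lower. The share called among the members was thus under the background in both directions, and no test was made of the difference since the members were chosen with results of these data known. The count of 14 was 8 without HUWE1-CS replicate 1 and 8 without HUWE1-CS replicate 3.

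The members moved little and to both sides. Their median log2 fold change was 0.02, the quartiles were -0.15 and 0.23, and the range ran from -1.002 (ZNF512B) to 0.79 (ZNF219). A change of at least 1 log2 unit was reached by 1 of the 131 members and a change of at least 0.5 by 12. Of the 8690 genes with a mean count of at least 30, 112 and 1036 reached these changes. The SD of the members' log2 fold changes was 0.30, beside 0.35 for the 8690 genes that reach the same minimum. In HUWE1-WT against HUWE1-P cells, the comparison of the control lines with each other, the SD was 0.17 and the range ran from -0.61 to 0.49. The median standard error of a member was 0.14 in the first comparison and 0.16 in the second, so the spread between the control lines was about the size of the error and that of HUWE1-CS cells was wider. In 30 of the 131 members (22.9%) all 3 HUWE1-CS libraries lay beyond the 6 control libraries, against 29.2% of the 8690 genes. The 2 sets differ in abundance: 4348 of the 8690 genes but only 22 of the members had a mean of at least 100 counts. Among all genes the share beyond the controls was 20.7% at 30 to under 50 counts, 24.1% at 50 to under 100 and 35.6% at 100 or more. Among the members it was 12.5%, 29.5% (18 of 61) and 27.3% in the same bins. The members' share was thus under that of all genes in the lowest and highest bins and above it in the middle bin.

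**Figure D1:**
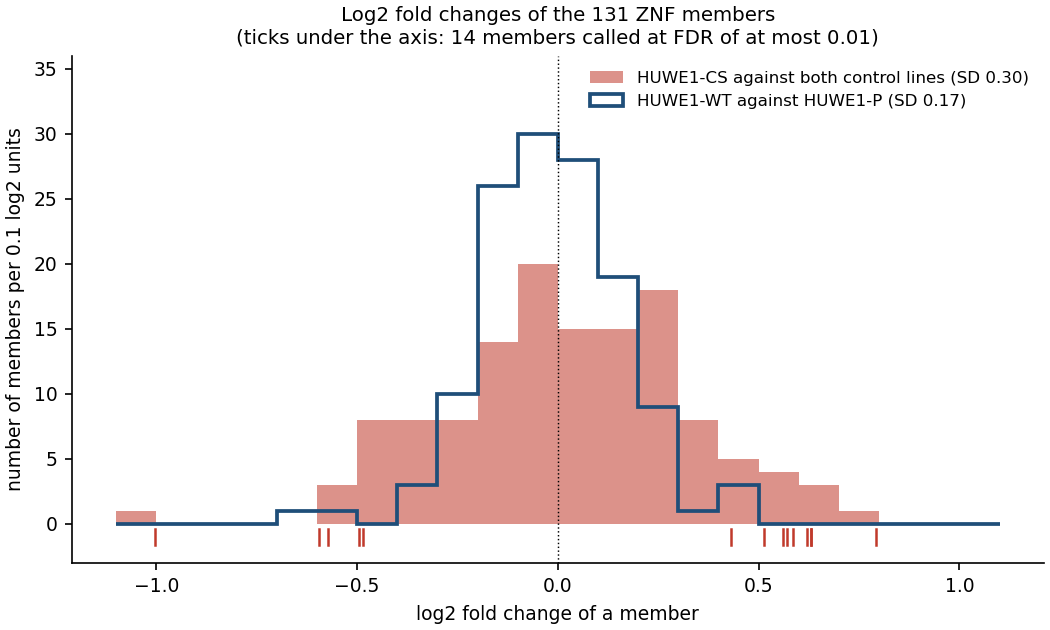
Histogram of the log2 fold changes of the 131 members (x axis, bins of 0.1) against the number of members (y axis), filled for HUWE1-CS against both control lines and as an outline for HUWE1-WT against HUWE1-P. The filled distribution has an SD of 0.30 and the outline 0.17, and the ticks mark the 14 called members.

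Against each control line alone, HUWE1-CS cells had 11 called members against HUWE1-P (6 higher, 5 lower; all genes 17%) and 8 against HUWE1-WT (5 higher, 3 lower; all genes 15.5%). The comparisons share the HUWE1-CS libraries. The medians of the members were 0.02 and 0.04. In HUWE1-WT against HUWE1-P cells 0 members were called by edgeR, beside 0.0617% of all genes. An unadjusted edgeR p under 0.05 was found for 8 members, which is 6.11% of them. Of the 8690 genes that reach the same minimum 5.68% had such a value. DESeq2 and limma-voom also called 0 members there.

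The lowest member was ZNF512B, at chr20:62588057-62601283, a protein with 7 C2H2 patterns and no KRAB box that represses transcription. Its raw counts were 58, 70 and 62 in HUWE1-P, 66, 60 and 55 in HUWE1-WT and 24, 35 and 30 in HUWE1-CS cells. Every HUWE1-CS library lay under every control library. The log2 fold change was -1.002 with a standard error of 0.17, which is 0.499 of the control level (edgeR adjusted p = 7.57e-07). It was called in each of the 20 alternative fits.

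The other 4 lowered members fell by less. ZNF185, at chrX:152066611-152142025, is a LIM-domain protein of the actin cytoskeleton without a C2H2 pattern, and belongs to the group by name alone. Its counts were 47, 58 and 57 in HUWE1-P, 59, 61 and 51 in HUWE1-WT and 38, 41 and 27 in HUWE1-CS cells (log2 fold change -0.59 ± 0.16 SE, edgeR adjusted p = 0.00279). ZNF480, a KRAB gene at chr19:52800422-52829175, had 49, 48 and 52 counts in HUWE1-P, 51, 51 and 46 in HUWE1-WT and 29, 33 and 34 in HUWE1-CS cells (-0.57 ± 0.17, edgeR adjusted p = 0.00568). Neither gene's HUWE1-CS libraries overlapped the controls after scaling. ZNF367, at chr9:99148223-99180652, had 86, 92 and 128 counts in HUWE1-P, 95, 95 and 118 in HUWE1-WT and 59, 82 and 70 in HUWE1-CS cells (-0.48 ± 0.12, edgeR adjusted p = 0.00117). ZNF655, a KRAB gene whose product binds the exchange factor VAV, was named after its values were seen. Its counts were 95, 97 and 101 in HUWE1-P, 64, 85 and 107 in HUWE1-WT and 61, 68 and 58 in HUWE1-CS cells. Here the HUWE1-WT libraries spread widely and 1 of them overlapped the HUWE1-CS libraries (-0.50 ± 0.13, edgeR adjusted p = 0.00205).

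Among the 9 raised members ZNF219, a C2H2 protein known as a partner of SOX9 in cartilage, had the highest log2 fold change. It lies at chr14:21558236-21572881 and had 23, 35 and 33 counts in HUWE1-P, 38, 27 and 31 in HUWE1-WT and 44, 48 and 64 in HUWE1-CS cells. All HUWE1-CS libraries were above all controls, at 30.2 ± 6.08 CPM against 16.6 ± 2.75 in HUWE1-P and 18.3 ± 3.65 in HUWE1-WT cells (log2 fold change 0.79 ± 0.17 SE, edgeR adjusted p = 0.000118). The call was lost without HUWE1-CS replicate 3, the highest of the 3 libraries. ZNF740, at chr12:53574488-53588926, had 67, 65 and 109 counts in HUWE1-P, 50, 65 and 73 in HUWE1-WT and 124, 90 and 103 in HUWE1-CS cells. The libraries of HUWE1-CS and HUWE1-P cells met at their edges (0.63 ± 0.12, edgeR adjusted p = 2.26e-05).

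ZNF672, at chr1:249132409-249143716, is a protein with 14 C2H2 patterns. Its counts were 63, 59 and 76 in HUWE1-P, 70, 55 and 62 in HUWE1-WT and 92, 108 and 85 in HUWE1-CS cells, again with no overlap (0.62 ± 0.12, edgeR adjusted p = 3.16e-05). ZNF768, at chr16:30535325-30538142, binds an old family of interspersed repeats. It had 81, 90 and 118 counts in HUWE1-P, 116, 105 and 108 in HUWE1-WT and 126, 178 and 120 in HUWE1-CS cells, with HUWE1-CS replicate 2 well above the other two (0.51 ± 0.11, edgeR adjusted p = 5.25e-05). Without that library the log2 fold change was 0.34 and the call was lost. ZNF839, at chr14:102783714-102809039, carries no C2H2 pattern of the spacing searched and had 29, 39 and 34 counts in HUWE1-P, 38, 36 and 32 in HUWE1-WT and 54, 46 and 55 in HUWE1-CS cells (0.63 ± 0.16, edgeR adjusted p = 0.00146).

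The other raised members were ZNF398 (0.59), a KRAB gene, ZNF444 (0.57), a SCAN-domain protein, ZNF646 (0.56), with 31 C2H2 patterns, and ZNF696 (0.43). Their HUWE1-CS libraries lay above all control libraries, and their edgeR adjusted p-values ran from 0.000563 (ZNF398) to 0.00913 (ZNF696). ZNF696 was the call nearest to the threshold and was lost in 11 of the 20 alternative fits. Only ZNF512B, ZNF672 and ZNF740 were called in all 20 fits, and the other 11 were lost in at least 1. With DESeq2 the calls of ZNF185, ZNF367, ZNF398, ZNF444, ZNF480, ZNF646, ZNF655, ZNF696 and ZNF839 were lost. Leaving out HUWE1-CS replicate 3 ended the calls of ZNF185, ZNF219 and ZNF398, leaving out HUWE1-CS replicate 1 those of ZNF367 and ZNF646, and leaving out either of these that of ZNF839. ZNF655 was lost without either of them or HUWE1-WT replicate 3, and ZNF444 without HUWE1-CS replicate 2 or HUWE1-WT replicate 1. ZNF480 was lost without any 1 of the HUWE1-CS libraries, HUWE1-P replicate 1 or HUWE1-WT replicate 1, and ZNF696 without any 1 of 7 of the 9 libraries.

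**Figure D2:**
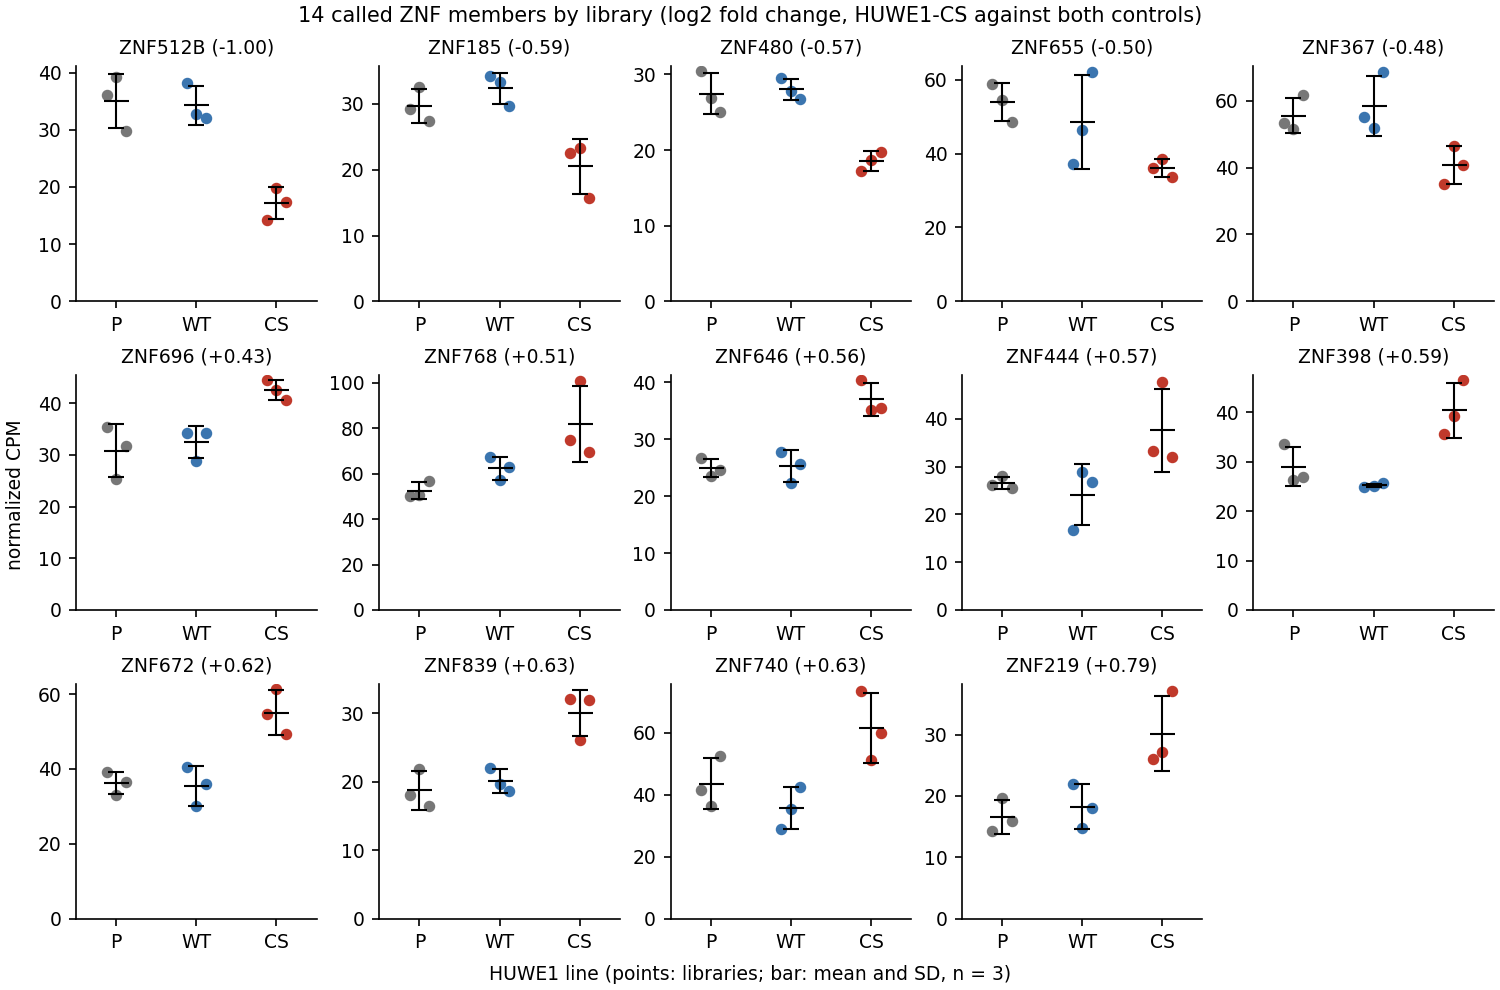
Normalized CPM (y axis, from 0) of the 14 called members in each library (points), with the mean and SD of the 3 libraries of a line, ordered by log2 fold change in HUWE1-CS against both control lines. The HUWE1-CS points lie beyond all 6 control points in 12 members and overlap them in ZNF655 and ZNF740.

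No member was nearly lost. The rule for this was at most 3 counts in every HUWE1-CS library, or a mean CPM of at most 0.25 or at least 4 times that of both control lines, and 0 of the 131 members met it. The ZNF genes that did, ZNF440 and ZNF266, lie under the count minimum. Their values were known when the group was set up and are given without a test.

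ZNF440 had 24, 20 and 33 counts in HUWE1-P, 22, 31 and 25 in HUWE1-WT and 2, 0 and 0 in HUWE1-CS cells. Its level was 14.01 ± 2.46 CPM in HUWE1-P and 14.7 ± 2.09 in HUWE1-WT cells. With the 3 counts per library taken as the floor, it was at least 8.25-fold lower in HUWE1-CS cells than in the controls. ZNF266 had 9, 18 and 9 counts in HUWE1-P, 9, 18 and 15 in HUWE1-WT and 1, 1 and 2 in HUWE1-CS cells, at least 4.19-fold lower by the same floor. No other ZNF gene came near these values: they held the 2 lowest log2 fold changes of the 290, and the next was that of ZNF532 (-1.47).

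The genes beside them were examined next. The 3 nearest tested genes on each side of ZNF440 were ZNF627, HNRNPA1P10, ZNF823, ZNF700, ZNF564 and ZNF490, and those of ZNF266 were ZNF558, ZNF317, ZNF559, ZNF121, ZNF561 and ZNF562. None of these 12 genes was called by edgeR, beside 24.8% of genes with at least 30 counts and 10.3% of those under 30. With so few genes, several of them at low counts, the lack of a call does not show that they were unchanged. The smallest edgeR adjusted p-values among them were 0.0300 for HNRNPA1P10 (log2 fold change 0.14) and 0.0484 for ZNF121 (-0.45). The closest by start, ZNF823 beside ZNF440 (-0.23 ± 0.33 SE) and ZNF559 beside ZNF266 (-0.06 ± 0.31 SE), had few counts and wide errors, and on the other side of ZNF440 ZNF700 was at -0.09 ± 0.22 SE. ZNF69, which shares words with ZNF440, was not analysed here.

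**Figure D3:**
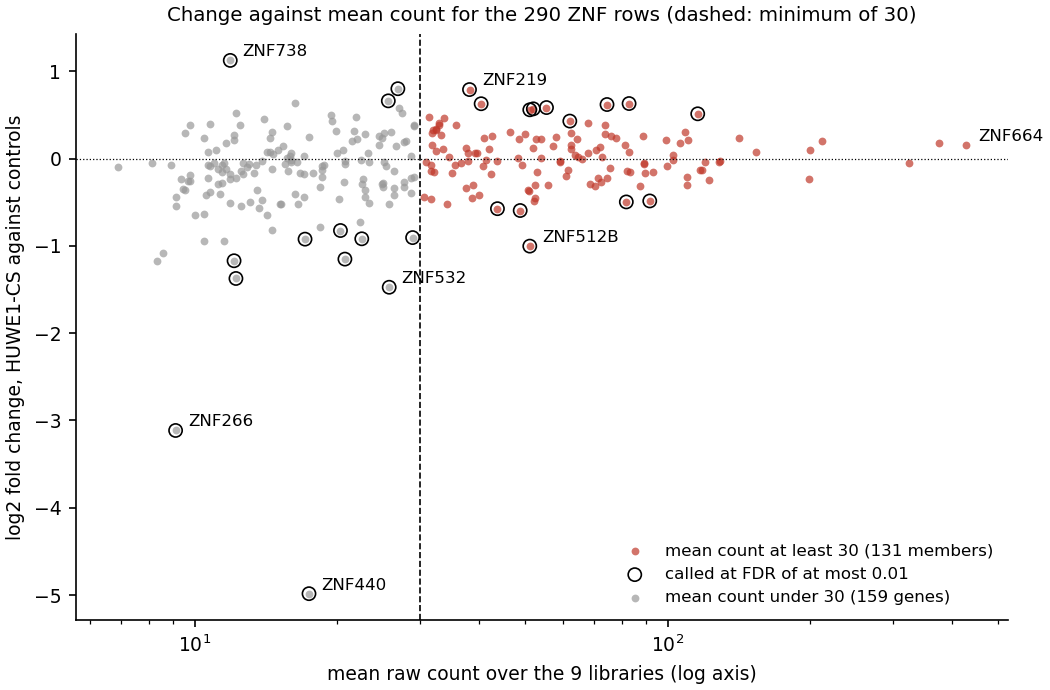
Log2 fold change in HUWE1-CS against both control lines (y axis) against the mean raw count over the 9 libraries (x axis, log scale) for the 290 ZNF genes, with the minimum of 30 as a dashed line and called genes ringed. ZNF440 and ZNF266 stand under the minimum and far below the rest, whose values lie between -1.47 and 1.13.

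The minimum decides what is seen. Just above it were ZNF227 with a mean of 30.6 counts, ZNF558 with 30.8 and ZNF830 with 31.3, and just below it ZNF189, ZNF28 and ZNF707 with 29.1 each and ZNF215 with 28.9. Of the 159 genes under the minimum 13 were called, 8.18% of them, 10 lower and 3 higher, and their median log2 fold change was -0.12. Of the 2660 genes under 30 counts 10.3% were called, 167 lower and 106 higher, with a median of -0.035. Because the mean includes the HUWE1-CS libraries, a lowered gene is more easily left out: 6 genes under the minimum had a control mean of at least 30, among them ZNF532 (33.0 counts in the controls, 11.3 in HUWE1-CS cells) and ZNF215 (34.5 and 17.7). In the other direction 2 members, ZNF408 and ZNF830, had a control mean under 30. With no minimum 27 of the 290 ZNF genes were called, 12 higher and 15 lower.

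The lowered genes under the minimum were mostly KRAB genes, 9 of 10, and 7 of the 10 lie on chromosome 19. They include ZNF91, known for silencing SVA elements (-1.17), ZNF84 (-1.37), ZNF83 (-1.15), ZNF780B (-0.92), ZNF525 (-0.92) and ZNF324B (-0.82). KRAB genes are also the most of all ZNF genes at such counts, 108 of the 159, and 72 of the 159 lie on chromosome 19. The 3 raised ones were ZNF738 (1.13), ZNF319 (0.80) and ZNF786 (0.66). Many of these calls depended on the fit. ZNF780B was lost in 14 of 19 alternative fits, ZNF786 in 12 of 20, ZNF324B in 11 of 20 and ZNF91 in 10 of 19, each with DESeq2 and without any 1 of several libraries. ZNF525 was lost with DESeq2 and without any 1 of the HUWE1-CS libraries, ZNF738 with DESeq2 and without HUWE1-CS replicate 1 or 3, and ZNF84 with DESeq2 and without HUWE1-CS replicate 2 or HUWE1-P replicate 3. ZNF215 was lost with DESeq2 and without HUWE1-CS replicate 2, ZNF319 with DESeq2 and without HUWE1-CS replicate 3, and ZNF83 without HUWE1-CS replicate 2, while ZNF532 was called in all 19. For ZNF84 97.4% of the 50-base words occur elsewhere in the genome and for ZNF532 31.6%.

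Levels of members can be compared only per length of transcript. By CPM per kilobase the members ran from 1.59 to 56.0 with a median of 7.64, and ZNF664 (56.0) and ZNF146 (54.9) stood above ZNF787 (31.6), ZNF768 (28.7) and ZNF580 (28.2). By CPM alone the 5 highest were ZNF664 (242), ZNF207 (213), ZNF146 (184), ZNF24 (120) and ZNF770 (113). None of these 5 was called, and their log2 fold changes were 0.16, 0.18, -0.04, 0.20 and 0.10. The 22 members with a mean of at least 100 counts, for which the standard errors are smallest, had 1 call, ZNF768, where 32.0% of all genes at such counts were called. At 50 to under 100 counts 9 of 61 members were called (all genes 18.6%), and at 30 to under 50 counts 4 of 48 (all genes 15.9%).

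Members with roles in RNA, ribosomes, ubiquitin or the spindle were listed apart. Of 13 such genes 11 were members, and 0 of the 11 were called by edgeR. Beside this, 10.7% of all members and 24.8% of all genes with at least 30 counts were called. A list of 11 is too short to set it apart from these shares, and no test was made. They ran from ZNF638 (-0.23 ± 0.09 SE), a protein of nuclear RNA and silencing, to ZNF277 (0.34 ± 0.19 SE). ZNF207, which carries the checkpoint protein BUB3 to kinetochores, had all 3 HUWE1-CS libraries above the controls, at a log2 fold change of 0.18 ± 0.07 SE and an edgeR adjusted p = 0.0325. ZNF598, the ubiquitin ligase that marks collided ribosomes, was at 0.07 ± 0.09 SE, and ZNF622, a factor of large subunit assembly, at -0.14 ± 0.13 SE.

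Of 19 activators and partners of corepressors 17 were members, and 1 of them, ZNF740, was called (5.88%). The share was 10.7% over all members and 24.8% over all genes with at least 30 counts. ZNF532, also on this list, lies under the count minimum and was called lower (-1.47). The other 16 members of the list lay between -0.30 (ZNF335) and 0.31 (ZNF143, which binds promoters and chromatin loop anchors). ZNF217 (-0.16), a partner of the CoREST complex, and ZNF281 (-0.22) were lower and ZNF687 (0.26) and ZNF592 (0.21), which act together in a complex with ZMYND8, were higher, all without passing the test. Of 10 KRAB genes with a named role 2 were members, ZNF202 (0.39 ± 0.19 SE) and ZNF317 (0.04 ± 0.11 SE), and neither was called.

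A KRAB-like box was scored on the translated coding sequence of the annotation as at least 13 of 36 residues identical to a consensus of 132 such windows. By this measure 48 members were KRAB-like and 83 were not. Of the KRAB-like members 3 were called (6.25%), 1 higher (ZNF398) and 2 lower (ZNF480 and ZNF655), with a median log2 fold change of -0.02. Of the others 11 were called (13.3%), 8 higher and 3 lower, with a median of 0.07. Among all genes with at least 30 counts 24.8% were called. The median standard error was 0.16 in KRAB-like members and 0.13 in the others, and the difference in calls was not tested. The number of C2H2 patterns had a median of 10 in KRAB-like members and 7 in the others, and reached 40 in ZNF142. Of the 30 members on chromosome 19, 15 of them KRAB-like, 1 was higher (ZNF444) and 1 lower (ZNF480), and their median was 0.02. Of all 561 genes on that chromosome with at least 30 counts 26.4% were called, with a median of 0.07.

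The raised members shared a high GC content. All 9 lay in the part of the members with a transcript GC content above the members' median of 46.9%, and their own median was 60.8%. Among the 65 members above the median 9 were higher and 2 lower, with a median log2 fold change of 0.12. Among the 66 at or under it 0 were higher and 3 lower, with a median of -0.07. The shares called were 16.9% and 4.55%, beside 24.8% of all genes with at least 30 counts at any GC content. The same split of all genes is not given here. Spearman's rho between GC content and log2 fold change was 0.31 over the 131 members and 0.12 over 8599 genes with at least 30 counts. It is given as a description since the genes share their libraries. With transcript length rho was -0.30 and -0.26. In HUWE1-WT against HUWE1-P cells the same rho values of the members were 0.20 with GC content and -0.35 with length, so that these relations were also present between the control lines. With the GC trend of each library removed 15 members were called, 11 higher and 4 lower, and of the 14 members ZNF480 and ZNF696 lost their call.

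**Figure D4:**
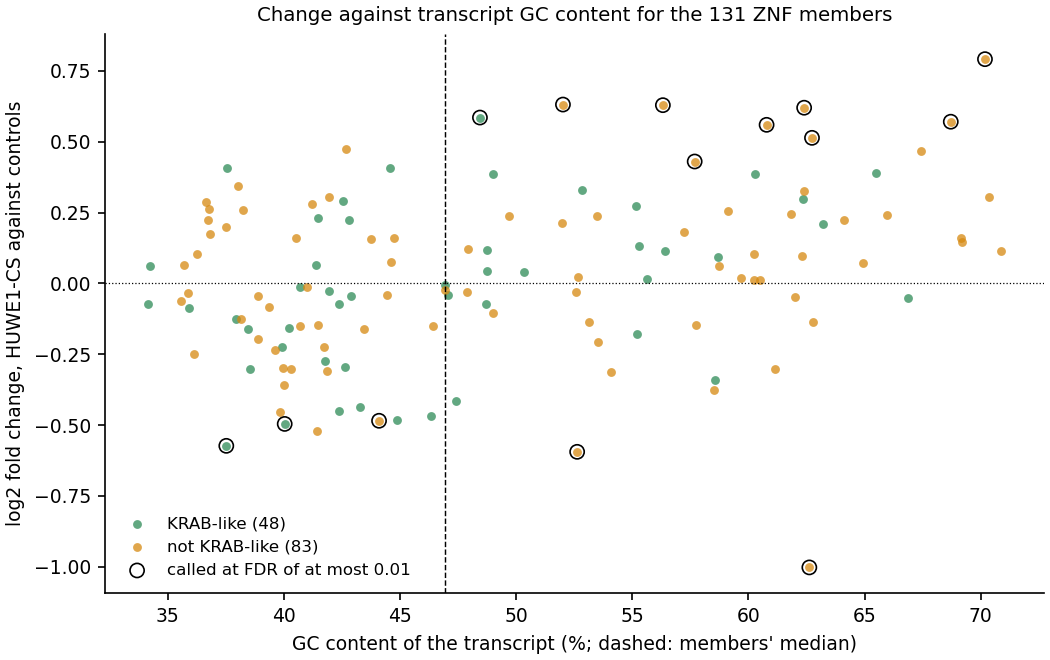
Log2 fold change in HUWE1-CS against both control lines (y axis) against the GC content of the transcript in percent (x axis) for the 131 members, coloured by KRAB-like and not KRAB-like, with called members ringed and the median of 46.9% dashed. The 9 raised members all lie right of the median.

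Shared sequence limits what single members can show. Of the 131 members 65 had no 50-base word elsewhere in the genome, 86 had under 1% and 6 had at least 10%. Of the called members 12 had under 1%, and the highest share among them was 5.997% (ZNF655). The 6 members with at least 10% all had log2 fold changes under 0, with a median of -0.33. By edgeR 0 of them were called, beside 10.7% of all members and 24.8% of all genes with at least 30 counts. In 4 of the 6 every HUWE1-CS library lay under every control library. Of all members 22.9% lay beyond the controls in either direction. Against HUWE1-P alone 1 of the 6 was called lower. ZNF286A (58.3% of words elsewhere, log2 fold change -0.27 ± 0.13 SE) and ZNF286B (59.6%, -0.52 ± 0.20 SE) share most of theirs with each other, and ZNF322 (86.3%, -0.36 ± 0.16 SE) shares its words with another locus. ZNF587 (26.7%, -0.48 ± 0.16 SE) came closest to the threshold against both control lines, with an edgeR adjusted p = 0.0113. Reads of these genes can be split between copies, so their values are uncertain.

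**Figure D5:**
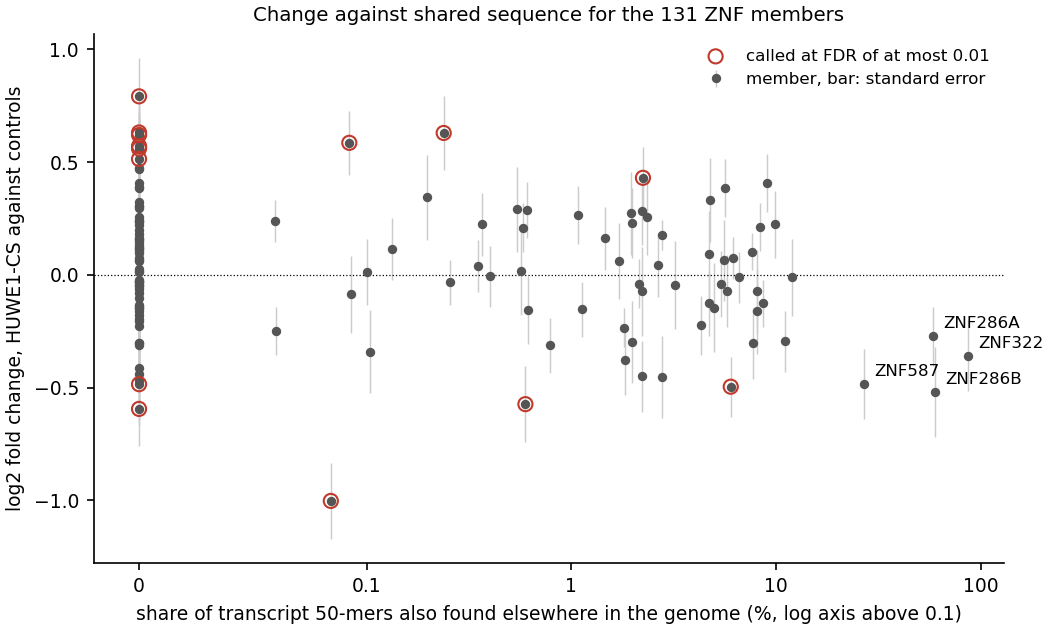
Log2 fold change with its standard error in HUWE1-CS against both control lines (y axis) against the share of a member's transcript 50-base words that also occur elsewhere in the genome (x axis, percent, log scale above 0.1) for the 131 members, with called members ringed. The 4 members with the highest shares, ZNF286A, ZNF286B, ZNF322 and ZNF587, lie between -0.27 and -0.52.

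Exons of 8 called members overlap those of another gene, and the kit used does not mark the strand, so reads from an overlap cannot be assigned. The largest overlap was that of ZNF839 with CINP, 34.9% of the ZNF839 transcript, and CINP itself was at a log2 fold change of -0.02 ± 0.14 SE. ZNF740 overlaps ITGB7 over 22.0% of its transcript, which was not analysed here, and CSAD over 1.24% (CSAD 0.46 ± 0.30 SE). ZNF646 overlaps PRSS53 over 11.0% (PRSS53 -0.01 ± 0.31 SE) and ZNF219 overlaps ARHGEF40 over 5.63% (ARHGEF40 0.28 ± 0.25 SE). None of these partners was called by edgeR, and PRSS53, CSAD and ARHGEF40 had under 20 counts on average.

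The genes of the machinery that KRAB proteins recruit were followed as a separate list. Of the 30 symbols listed 28 were found and tested. Of these genes 11 were called, 6 higher and 5 lower, with a median log2 fold change of 0.05. TRIM28, the corepressor that binds the KRAB box, was higher at 1634 CPM against 1332 in HUWE1-P and 1372 in HUWE1-WT cells (0.27 ± 0.05 SE, edgeR adjusted p = 1.40e-06). SETDB1, the methyltransferase it recruits, was higher as well (0.42 ± 0.11 SE), as were the deacetylase HDAC1 (0.47 ± 0.06 SE), the methyltransferase EHMT2 (0.33), MTA1 of the NuRD complex (0.29) and SUMO2 (0.19). Lower were CHD3, the NuRD remodeller (-0.80 ± 0.11 SE), UHRF1 (-0.36) and DNMT1 (-0.32), which maintain DNA methylation, and the HP1 proteins CBX1 (-0.26) and CBX5 (-0.23). TRIM28, HDAC1, EHMT2, CHD3, UHRF1 and DNMT1 were called in all 20 alternative fits. CBX5 was lost in 9 of them, among these DESeq2, the fits with the GC or length trend removed and those without HUWE1-CS replicate 2 or 3, HUWE1-P replicate 3 or HUWE1-WT replicate 1 or 3. SUMO2 was lost in 7, with DESeq2, total counts and without HUWE1-CS replicate 2, HUWE1-P replicate 1 or 3 or HUWE1-WT replicate 1 or 3. SETDB1 was lost with DESeq2 and without HUWE1-CS replicate 1, MTA1 without HUWE1-CS replicate 1 and CBX1 without HUWE1-CS replicate 2. The 11 are 39.3% of the 28 genes tested, beside 24.8% of all genes with at least 30 counts and 32.0% of those with at least 100. The difference from the members was not tested.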

How the data were processed

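RNA-seq libraries of 3 HCT116 lines, 3 per line, were analysed. The raw counts per gene were deposited by the authors without normalization, after bcl2fastq 2.20, Skewer, and STAR 2.5.4 on hg19 (edgeR 3.26.8 for their own tests). The counting tool, annotation, use of strand and filter on low genes are not given in the sources used here. The 3 deposited tables of the authors' comparisons hold fold changes, mean log2 CPM, F values, p-values and FDR, and were not used. Lines and replicate numbers came from the sample labels.

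Counts were tested with edgeR 4.0.16 in R 4.3.3 (TMM, glmQLFit and glmQLFTest with legacy = TRUE, line as the only term, all 9 libraries, no filter), and genes with an FDR of at most 0.01 were called. edgeR's standard filter would keep 11336 of 11350 genes. The common biological coefficient of variation was 4.77%. Totals of 1610984 to 2060349 counts put 3 counts at 1.45 to 1.86 CPM; floors cover counting error only. Replicates differed by more than sampling noise (chi-square per degree of freedom 1.16 to 1.65). The fit was tested on simulated data.

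The members and lists were chosen with earlier results of these data known. Genes were named by rule. It took the 8 highest and 8 lowest called members whose HUWE1-CS libraries lie beyond the 6 controls, and the 5 smallest p-values. Nearly lost or gained genes, ZNF440 and ZNF266, and the 5 highest CPM were added. Called genes of the lists (members by role and 30 symbols of KRAB corepressors) were named too. So were 3 genes on each side of the minimum and of a nearly lost gene. Other named genes, such as those with shared words or overlaps, were chosen after their values were seen. Positions, GC content, length and translated coding sequences came from GENCODE on GRCh37 (hg19); 289 of 290 ZNF symbols matched. C2H2 patterns were C-x2-4-C-x12-H-x3-5-H/C. Words of 50 bases were searched on both strands of GRCh37 outside the gene itself, and words at more than 20 places were credited to no gene. Promoters came from RefSeq (GRCh38.p14). Python 3.11.15 and pandas 2.3.3 were used. Alternatives (DESeq2 1.42.0, limma-voom 3.58.1, other normalizations, filters, thresholds, a replicate block, GC and length trends, leaving out each library) are given at the end.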

Additional observations from a re-analysis of the deposited data

How the results depend on the processing

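The count of called members in HUWE1-CS against both control lines, 14, was 5 with DESeq2, 30 at an FDR of at most 0.05, 1 with a log2 fold change of at least 1 in addition, 1 of 22 with a mean count of at least 100 and 27 of 290 with no minimum, and 8 to 14 without 1 library. Against HUWE1-P the count of 11 was 2, 27 and 1 in the first 3 of these and 5 to 12 without 1 library (5 without HUWE1-P replicate 1, 6 without HUWE1-CS replicate 1, 7 without HUWE1-CS replicate 2 or HUWE1-P replicate 3). Against HUWE1-WT the count of 8 was 3, 18 and 0, and 5 to 8 without 1 library, the 5 without HUWE1-CS replicate 3. In HUWE1-WT against HUWE1-P no alternative called a member. DESeq2 fitted the same 131 members, and the cause of its lower counts was not tested. The share of all genes called with the other fits and FDR limits is not given here. These counts thus do not show whether the members moved apart from other genes.

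The medians stayed within 0.1 log2 units. In HUWE1-CS against both control lines the median was 0.063 with the length trend removed, -0.049 with no minimum and -0.00035 to 0.053 without 1 library. Against HUWE1-P it was 0.056, -0.039 and 0.0024 to 0.061, against HUWE1-WT -0.046 with no minimum and -0.017 to 0.047 without 1 library, and in HUWE1-WT against HUWE1-P -0.029 to 0.0034 without 1 library. The SDs moved more with the members used. In HUWE1-CS against both control lines the SD was 0.29 with the GC or the length trend removed or both block and GC trend, 0.20 at a minimum of 100, 0.51 with no minimum and 0.30 to 0.32 without 1 library. Against HUWE1-P these were 0.31 with the GC trend removed (also with the block), 0.30 with the length trend removed, 0.22, 0.52 and 0.32 to 0.34, against HUWE1-WT 0.30 with the GC trend removed, 0.21, 0.53 and 0.30 to 0.32, and in HUWE1-WT against HUWE1-P 0.17 with the length trend removed, 0.13, 0.26 and 0.17 to 0.20.

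Of 56 genes followed singly, the log2 fold change of ZNF146 turned to 0.0097 with the GC trend removed, with and without the block, that of ZNF28 ran from -0.41 to 0.017 without 1 library, and that of ZNF558 to 0.048 with the length trend removed and ran from -0.097 to 0.042 without 1 library; none of the 3 was called. ZNF207 and ZNF24 passed the threshold with either trend removed, ZNF664 with the length trend removed and ZNF587 with total counts.

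The replicate numbers are shared between lines. The 9 same-numbered pairs had correlations of deviations from -0.02 to 0.06, so no pairing effect was seen. At this depth such values cannot show whether same-numbered libraries were made together. With a replicate block 15, 11, 9 and 0 members were called in the 4 comparisons, and with the block and the GC trend removed 15, 10, 7 and 0. At 30 to 50 counts a member's standard error reached 0.21 log2 units, so a change of that size was not detectable at this depth.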

Other observations

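Zinc finger genes with other names were read at the same minimum of 30 counts. Of all 8690 genes at this minimum 24.8% were called, and 4333 had log2 fold changes under 0. The families below are short lists, and no test of them was made. The symbol rule for ZBTB genes, which carry a BTB domain in place of a KRAB box, took in 24 genes, among them ZBTB8OS, which has neither that domain nor a C2H2 pattern and was left out after its values were seen. Of the 23 others 1 was called, ZBTB4 (lower, log2 fold change -0.52 ± 0.16 SE), and their median was -0.16, with 18 of the 23 under 0. With ZBTB8OS the median was -0.14 and 19 of 24 were under 0. The call of ZBTB4 was lost in 9 of 20 alternative fits, with DESeq2, limma-voom, the length trend removed or any 1 of 6 libraries left out. Of 3 ZSCAN genes ZSCAN32 was higher (0.55 ± 0.17 SE), a call lost in 8 of 20 fits, with DESeq2, total counts or any 1 of 6 libraries left out, and of 4 ZKSCAN genes none was called by edgeR. Of 8 ZFP genes ZFP36L1 was lower, with 261, 275 and 308 counts in HUWE1-P, 255, 237 and 220 in HUWE1-WT and 89, 100 and 109 in HUWE1-CS cells. ZFP36L1 has zinc fingers of another type, which bind AU-rich elements of mRNA and promote its decay. Its log2 fold change of -1.32 ± 0.09 SE was lower than that of any ZNF member, and it was called in all 20 fits. The related ZFP36 (-0.12 ± 0.16 SE) and ZFP36L2 (-0.16 ± 0.09 SE) were not called.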
